A study of Mus musculus with 6 samples.

Results

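The H2A and H3 histone variant genes were examined in mouse embryonic stem (mES) cells by RNA-seq. The 8 genes were chosen by name: *H2afz* and *H2afv*, which encode the 2 forms of H2A.Z, *H2afx* (H2A.X), *H2afj* (H2A.J), *H2afy* (macroH2A1), *H3f3a* and *H3f3b*, which both encode H3.3, and *Cenpa*, the H3 variant of centromeres. All 8 were among the 16668 genes listed. The cells were E14, a feeder-independent line of strain 129/Ola, in 2i medium (the inhibitors PD0325901 and CHIR99021) with LIF. They were collected after transfection of siRNA. The 6 libraries are named by their labels, with 2 of each: control for wild type cells given control siRNA, Ring1B-KD for siRNA to *Rnf2*, whose product Ring1B ubiquitylates H2A, and Dzip3-KD for siRNA to *Dzip3*, the gene of a second ligase of H2A. The study calls the duplicates biological. The labels do not say how cultures were separated, so p-values measure the spread between these libraries, which may be partly technical.

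The label of a library and the word in the name of its deposited file differed for 4 of the 6 libraries. Files 1 to 3 carry the words control, Ring1BKD and Dzip3KD, but their labels are control 1, control 2 and Ring1B-KD 1. Files 4 to 6 carry the same words in the same order, and their labels are Ring1B-KD 2, Dzip3-KD 1 and Dzip3-KD 2. Every test follows the labels, and a group name stands for a label only. If the words are right, each labelled group mixes treatments. The spread behind each p-value would then include differences between treatments. *Rnf2* followed the words and not the labels. *Dzip3* was lowest under its word, but was also lower in both Dzip3-KD libraries than in both controls. *Rnf2*, in RPKM (reads scaled for exon length and sequencing depth), was lowest in the 2 files with the word Ring1BKD, at 20.4 (label control 2) and 19.4 (label Dzip3-KD 1), and was at 26.8 to 30.6 in the other 4, both libraries labelled Ring1B-KD included. *Dzip3* was lowest in the 2 files with the word Dzip3KD, at 1.18 RPKM (label Ring1B-KD 1) and 1.31 RPKM (label Dzip3-KD 2), and at 1.70 to 2.68 RPKM in the other 4. It rested on 23 to 53 reads per library. Both libraries labelled Dzip3-KD (1.70 and 1.31 RPKM) also lay below both controls (2.24 and 2.68 RPKM). The counting intervals of Ring1B-KD 1 and Dzip3-KD 1 overlapped, so *Dzip3* does not decide between words and labels. Differences between labelled groups below are therefore differences between labels that *Rnf2* does not bear out and *Dzip3* does not settle. No direction in them, and no absence of called genes, can be assigned to a knockdown. Depth, recovered from the values, was 3015348 to 3583610 mapped reads per library. The 7 mES cell markers examined, *Pou5f1* and *Nanog* among them, lay between 40.0 and 433 RPKM. Of these, 2 were lower and 0 higher in Dzip3-KD against control at an unadjusted p under 0.05, beside 12.2% of all genes. They were *Tfcp2l1* (-0.66 on the log2 scale, limma adjusted p 0.300) and *Esrrb* (-0.54, limma adjusted p 0.347). The median log2 difference of the 7 markers was -0.29, against -0.07 over all genes. *Tfcp2l1* was also lower in Ring1B-KD against control (-0.41, limma adjusted p 0.902) and *Esrrb* in Dzip3-KD against Ring1B-KD (-0.45, limma adjusted p 0.864). *Tfcp2l1* and *Esrrb* differed in the direction of *H3f3b* and *H2afz* below. *Nanog* (0.26) and *Sox2* (0.16) differed the other way in Dzip3-KD against control. The part of these markers was not tested. By contrast, no library exceeded a sum of 1.34 RPKM over 5 primitive endoderm markers. The sums were 1.18 to 2.78 RPKM for the 3 listed of 4 trophectoderm markers and 1.18 to 2.73 RPKM for the 3 listed of 4 fibroblast markers.

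Nucleosomes are built mostly from replication-dependent histones, which are made in S phase from transcripts that end without a poly(A) tail. Variant histones are made from separate genes, largely outside that program, and are placed by their own chaperones. H2A.Z marks promoters, H3.3 is laid down at transcribed genes and at repeats, H2A.X is phosphorylated around DNA breaks, macroH2A carries a large non-histone domain and marks repressed chromatin, and CENP-A defines the centromere. mES cells are known for H2A.Z and H3.3 at the promoters of developmental genes, which Polycomb complexes with H2A ubiquitin ligase activity also occupy.

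A pair of genes supplies each of H3.3 and H2A.Z, so the sequences that separate the genes of a pair are shown first. *H3f3a* and *H3f3b* encode the same 136 residues, yet their coding sequences of 411 bp differed at 95 bases (76.9% identity), and the longest identical run was 23 bp. *H2afz* and *H2afv* encode proteins of 128 residues that differed at 3, from coding sequences of 387 bp that differed at 81 bases (79.1% identity). The first 120 bases of the H3.3 coding sequences (GENCODE M1, mm9) hold 24 of the differences, which are in capitals and which allow a read to be assigned to 1 gene of the pair:
H3f3a coding, bases 1 to 120: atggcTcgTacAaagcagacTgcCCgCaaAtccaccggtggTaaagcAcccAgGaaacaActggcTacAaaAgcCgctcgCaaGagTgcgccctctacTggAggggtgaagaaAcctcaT
H3f3b coding, bases 1 to 120: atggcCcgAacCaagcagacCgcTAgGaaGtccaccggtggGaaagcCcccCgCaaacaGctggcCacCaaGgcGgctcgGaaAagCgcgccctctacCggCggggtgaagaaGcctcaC

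Promoter windows, from 250 bases before to 50 after the annotated start, came from RefSeq (GRCm38.p6) and were matched for 7 of the 8 genes. That of *H2afx* was not used here. The windows are shown with CCAAT and also TATAAA, on either strand, in capitals, because the genes of each pair differed in their pattern over the libraries, as described below:
H3f3b promoter, chr11:116024455-116024754 (minus strand): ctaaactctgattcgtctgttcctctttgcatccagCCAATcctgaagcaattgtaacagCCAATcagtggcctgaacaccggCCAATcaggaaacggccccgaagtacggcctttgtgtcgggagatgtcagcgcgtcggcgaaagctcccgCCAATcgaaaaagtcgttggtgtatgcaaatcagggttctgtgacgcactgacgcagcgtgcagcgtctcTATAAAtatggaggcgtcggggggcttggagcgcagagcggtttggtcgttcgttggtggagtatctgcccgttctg
H3f3a promoter, chr1:180813556-180813855 (minus strand): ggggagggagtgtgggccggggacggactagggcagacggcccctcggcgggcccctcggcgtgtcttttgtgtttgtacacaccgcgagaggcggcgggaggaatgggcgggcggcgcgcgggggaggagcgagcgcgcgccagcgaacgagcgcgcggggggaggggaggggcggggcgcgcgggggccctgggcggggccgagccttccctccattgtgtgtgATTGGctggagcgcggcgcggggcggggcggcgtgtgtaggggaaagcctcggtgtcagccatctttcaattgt
H2afz promoter, chr3:137864237-137864536 (plus strand): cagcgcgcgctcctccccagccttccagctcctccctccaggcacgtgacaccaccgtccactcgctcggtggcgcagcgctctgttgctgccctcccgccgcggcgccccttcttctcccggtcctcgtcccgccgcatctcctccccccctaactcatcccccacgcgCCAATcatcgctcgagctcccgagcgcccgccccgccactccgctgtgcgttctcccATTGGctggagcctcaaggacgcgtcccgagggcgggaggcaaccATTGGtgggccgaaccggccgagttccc
H2afv promoter, chr11:6444394-6444693 (minus strand): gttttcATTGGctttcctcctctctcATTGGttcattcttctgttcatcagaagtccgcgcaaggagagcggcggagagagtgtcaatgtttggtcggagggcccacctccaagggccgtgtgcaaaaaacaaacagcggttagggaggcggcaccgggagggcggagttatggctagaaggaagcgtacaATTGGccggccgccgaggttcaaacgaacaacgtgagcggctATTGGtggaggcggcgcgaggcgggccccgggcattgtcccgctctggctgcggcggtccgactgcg

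The *H3f3b* window held 4 CCAAT and 1 TATAAA. Of 32851 promoter windows, 37.4% held at least 1 CCAAT, 1.06% held at least 4, and 13.6% held a TATAAA. The *H3f3a* window had 1 CCAAT, no TATAAA and 6 matches to GGGCGG, with overlapping matches counted. Of all windows, 35.7% held at least 1 GGGCGG and 2.71% at least 5. The GC content was 74.0% for *H3f3a* against 55.0% for *H3f3b*. The *H2afz* window had 3 CCAAT and that of *H2afv* 4. Among the others, *H2afj* had 3, *Cenpa* 2 and *H2afy* 0. TTTGAA, a part of a motif of genes expressed late in the cell cycle, occurred in the windows of *Cenpa* and *H2afv* and in 17.9% of all windows. Each motif was searched on both strands, and matches of different motifs may share bases. A match is a description of these letters and not a measured binding site.

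The order of the levels was determined next. RPKM is per exon length, so levels of different genes were set side by side. Limits from exon length and unique assignment, described below, leave the relative levels of *H3f3a* and *H2afz* uncertain. *H3f3b* and *H2afx* were the highest, with medians over the 6 libraries of 144 and 143 RPKM. *H3f3a* (75.9 RPKM) and *H2afz* (63.7 RPKM) followed. *H2afj* (26.2 RPKM), *H2afy* (22.3 RPKM) and *Cenpa* (19.8 RPKM) formed a lower tier, and *H2afv* was lowest at 11.0 RPKM. *H3f3b* stood between positions 43 and 118 among all listed genes, and *H2afv* between 2375 and 3264.

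Some neighbours in this order did not differ beyond their spread. *H3f3b* exceeded *H2afx* in only 3 of 6 libraries, those of files 1 to 3, and lay below it in the others. *H3f3a* exceeded *H2afz* in 4 of 6 libraries, the exceptions being both controls. *H2afj* exceeded *H2afy* in 5 of 6 libraries, as *H2afy* did *Cenpa*, with overlapping ranges. By contrast, the ranges did not overlap between *H2afx* and *H3f3a* (ratio 1.34 to 2.57), between *H2afz* and *H2afj* (1.70 to 3.92) or between *Cenpa* and *H2afv* (1.42 to 2.49), and the order was the same in 6 of 6 libraries. The order was taken from these same values and was not tested.

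**Figure D1:**
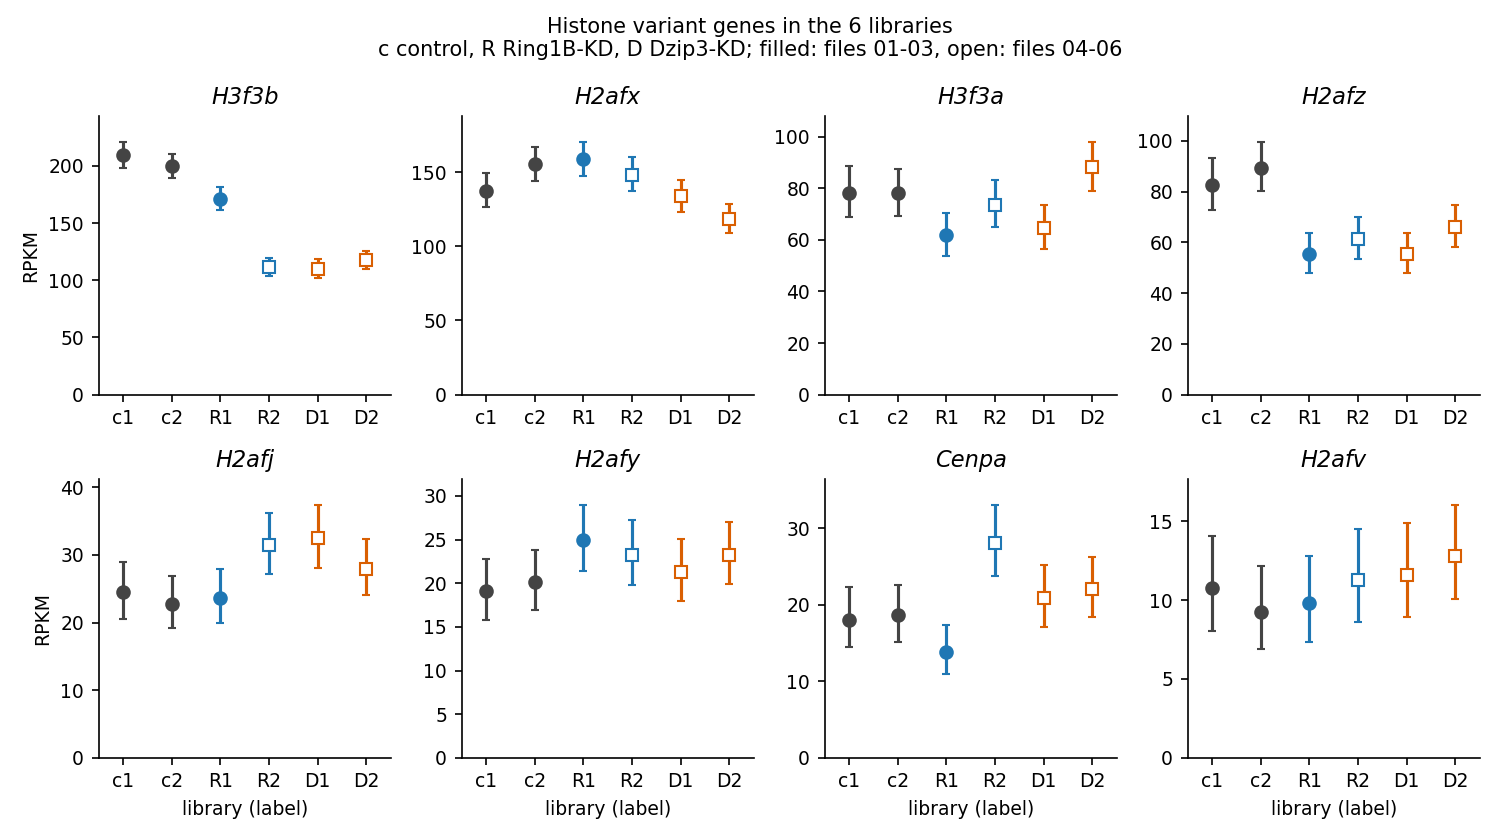
RPKM (y axis, starting at 0, separate scale per gene) of the 8 histone variant genes in each library (x axis). Bars are 95% exact Poisson intervals of the reads, filled circles are files 1 to 3 and open squares files 4 to 6. *H3f3b* is at 171 RPKM or more in files 1 to 3 and at 118 RPKM or less in files 4 to 6, and *H2afz* is highest in both controls.

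The reads behind these values set their precision. Whole reads were recovered for 8 of 8 genes. *H3f3b* had 716 to 1364 reads per library, *H2afx* 563 to 727, *H3f3a* 224 to 340 and *H2afz* 193 to 328. *H2afj* had 135 to 194 reads, *H2afy* 118 to 173, *Cenpa* 74 to 147 and *H2afv* 52 to 75. The 95% exact Poisson interval in control 1 was therefore narrow for *H3f3b* (198 to 221 RPKM) and wide for *H2afv* (8.05 to 14.1 RPKM). These intervals cover counting error only, since PCR copies cannot be told from separate molecules.

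The positions below are those of mm9 and GENCODE M1. *H3f3b* is on chromosome 11 (minus strand), between 115883226 and 115889276. The exon length implied by its values, 1993 bp, equals an annotated transcript of 4 exons. *H3f3a* is on chromosome 1 (minus strand), between 182730963 and 182744074. *H2afz* is on chromosome 3 (plus strand), between 137527451 and 137529886, with an implied length of 1069 bp that equals an annotated transcript of 5 exons. *H2afv* is on chromosome 11 (minus strand), between 6327229 and 6344446 and *H2afy* on chromosome 13 (minus strand), between 56174980 and 56237722. *H2afx* (plus strand of chromosome 9, 44142798 to 44144154) and *H2afj* (plus strand of chromosome 6, 136756769 to 136758595) each consist of a single exon. *Cenpa* is on chromosome 5 (plus strand), between 30969150 and 30977200. The implied lengths of *H2afv* and *H2afj* also equal an annotated transcript, and those of *H2afx* and *H2afy* are within 2 and 7 bp of one. For *H3f3a* (1076 bp) and *Cenpa* (1581 bp) the nearest transcripts differ by 188 and 227 bp. The exons behind their levels are thus not those of a protein-coding transcript of GENCODE M1. Lengths in other annotations were not compared.

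Unique assignment bears unequally on these genes. The *H3f3a* coding sequence matched 39 other unspliced stretches of mm9 over at least 90% of its length at 90% identity or more, 7 of them at 98% or more. *H2afz* had 4 such stretches, 1 of them at 98% or more. *H3f3b* had 2, at no more than 96.8% identity, and *H2afj* 13, at no more than 91.9% identity. *H2afx*, *H2afv*, *H2afy* and *Cenpa* had 0. Reads of *H3f3a* and *H2afz* that also match such a stretch were not counted, so their levels, relative to the other genes, are uncertain. Copies of the exon parts outside the coding sequence were not searched for, in any of the genes. Annotated genes on the opposite strand overlap *H3f3a* and *H2afy*, and whether the counting used strand is not given in the sources used here.

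To determine whether the variant genes differ between the labelled groups, limma was fitted on log2(RPKM + 1) across the 11538 genes that averaged 0.5 RPKM or more, 8 of 8 histone variant genes among them. A gene was called at an adjusted p under 0.05. In Dzip3-KD against control, 0 of the 8 genes were called, where 0% of all genes tested were. At an unadjusted p under 0.05 there were 2 of the 8, *H3f3b* and *H2afz*, both lower, against 12.2% of all genes. In Ring1B-KD against control, limma again called 0 of 8 (0% of all genes). The same 2 genes were lower at an unadjusted p under 0.05, against 5.10% of all genes. In Dzip3-KD against Ring1B-KD, 0 of 8 were called (0% of all genes), and 0 of 8 had an unadjusted p under 0.05, against 4.63%. A one-way model without moderation called 0 of 8 in each comparison. Both comparisons with control use the same control libraries. Fewer cells with a transcript and less of it per cell cannot be told apart in these bulk samples.

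*H3f3b*, with more counted RPKM than *H3f3a* in 6 of 6 libraries, was at 209 (control 1), 199.5 (control 2), 171 (Ring1B-KD 1), 111 (Ring1B-KD 2), 110.0 (Dzip3-KD 1) and 118 RPKM (Dzip3-KD 2). Both Dzip3-KD libraries lay below both controls, as did both Ring1B-KD libraries, and Ring1B-KD 1 was nearer to the controls. The control mean was 204 ± 6.94 RPKM (SD, n = 2). The Ring1B-KD mean was 141 ± 42.2 RPKM and that of Dzip3-KD 114 ± 5.40 RPKM, each with the SD of n = 2. On the log2(RPKM + 1) scale the Dzip3-KD difference from control was -0.84 (SE 0.22, 95% interval -1.33 to -0.35, limma adjusted p 0.300). The ratio of the means was 0.557. The Ring1B-KD difference was -0.56 (SE 0.22, limma adjusted p 0.902). It was -0.26 with Ring1B-KD 1 alone in that group and -0.87 with Ring1B-KD 2 alone. Neither difference passed the threshold.

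*H3f3a*, which encodes the same protein, had another pattern over the libraries. It was at 78.3 (control 1), 78.0 (control 2), 61.7 (Ring1B-KD 1), 73.7 (Ring1B-KD 2), 64.6 (Dzip3-KD 1) and 88.2 RPKM (Dzip3-KD 2). The Dzip3-KD libraries lay on either side of the controls. The log2 difference was -0.05 for Dzip3-KD (95% interval -0.50 to 0.40, limma adjusted p 0.927) and -0.21 for Ring1B-KD (95% interval -0.66 to 0.24, limma adjusted p 0.936). The Dzip3-KD value was 0.05 after scaling to a common 75th percentile, so its direction differed between scalings.

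The balance within each pair does not depend on the scaling of a library. *H3f3b* made up 72.8% and 71.9% of the summed RPKM of the 2 H3.3 genes in the controls. The share was 73.5% in Ring1B-KD 1, 60.2% in Ring1B-KD 2, 63.0% in Dzip3-KD 1 and 57.2% in Dzip3-KD 2. The libraries of files 1 to 3 lay within 71.9% to 73.5% and those of files 4 to 6 within 57.2% to 63.0%, so Ring1B-KD 1 stood with the controls and Ring1B-KD 2 with Dzip3-KD. The summed level of the pair was 288 and 278 RPKM in the controls, 233 and 185 RPKM in Ring1B-KD 1 and 2 and 175 and 206 RPKM in Dzip3-KD 1 and 2.

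*H2afz*, the major H2A.Z gene, was at 82.5 (control 1), 89.4 (control 2), 55.5 (Ring1B-KD 1), 61.4 (Ring1B-KD 2), 55.3 (Dzip3-KD 1) and 66.0 RPKM (Dzip3-KD 2). Both controls lay above the other 4 libraries, which overlapped among themselves. The log2 difference was -0.55 (SE 0.17, 95% interval -0.94 to -0.16, limma adjusted p 0.902) for Ring1B-KD and -0.50 (SE 0.17, 95% interval -0.89 to -0.11, limma adjusted p 0.332) for Dzip3-KD. Between Dzip3-KD and Ring1B-KD it was 0.05 (95% interval -0.34 to 0.44). *H3f3b* and *H2afz* were the 2 of 8 genes for which both controls exceeded all the other libraries, and 12.0% of all genes tested did so.

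*H2afv*, the minor H2A.Z gene, was at 10.7 (control 1), 9.27 (control 2), 9.78 (Ring1B-KD 1), 11.3 (Ring1B-KD 2), 11.6 (Dzip3-KD 1) and 12.8 RPKM (Dzip3-KD 2). Both Dzip3-KD libraries lay above both controls, and the fitted difference of 0.26 on the log2 scale (SE 0.18, limma adjusted p 0.561) came with counting intervals that overlapped between the groups. *H2afz* made up 88.5% and 90.6% of the summed RPKM of the pair in the controls, 85.0% and 84.5% in Ring1B-KD 1 and 2, and 82.7% and 83.8% in Dzip3-KD 1 and 2. The controls were therefore highest for this share as well, and here Ring1B-KD 1 did not stand with them.

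**Figure D2:**
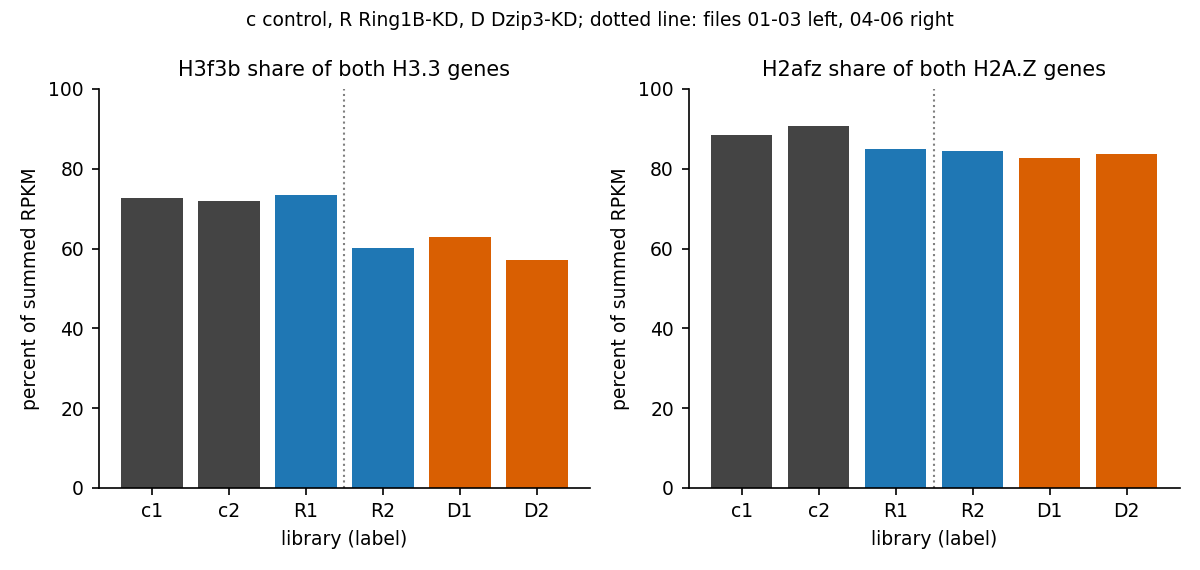
Share of the summed RPKM (percent, y axis from 0) that came from *H3f3b* among the H3.3 genes (left) and from *H2afz* among the H2A.Z genes (right), 1 bar per library. The *H3f3b* share is 71.9% to 73.5% left of the dotted line (files 1 to 3) and 57.2% to 63.0% right of it, and the *H2afz* share is highest in both controls.

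*H2afx*, whose product is phosphorylated at DNA breaks, was among the steadiest of the 8. It was at 137 (control 1), 155 (control 2), 159 (Ring1B-KD 1), 148 (Ring1B-KD 2), 134 (Dzip3-KD 1) and 118 RPKM (Dzip3-KD 2). Both Dzip3-KD libraries lay below both controls and below both Ring1B-KD libraries. The log2 difference was -0.21 against control (95% interval -0.60 to 0.17, limma adjusted p 0.603) and -0.28 against Ring1B-KD (95% interval -0.67 to 0.10, limma adjusted p 0.864).

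*H2afy*, the macroH2A1 gene, was at 19.1 (control 1), 20.2 (control 2), 25.0 (Ring1B-KD 1), 23.3 (Ring1B-KD 2), 21.3 (Dzip3-KD 1) and 23.2 RPKM (Dzip3-KD 2). It was the 1 gene of 8 for which both controls lay below the other 4 libraries, against 7.42% of all genes tested. The log2 difference was 0.29 (SE 0.16, limma adjusted p 0.902) for Ring1B-KD and 0.17 (SE 0.16, limma adjusted p 0.665) for Dzip3-KD.

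*H2afj*, whose product is known to accumulate in senescent cells, was at 24.5 (control 1), 22.8 (control 2), 23.7 (Ring1B-KD 1), 31.5 (Ring1B-KD 2), 32.5 (Dzip3-KD 1) and 28.0 RPKM (Dzip3-KD 2). Ring1B-KD 1 lay between the controls and Ring1B-KD 2 beside the Dzip3-KD libraries. The Dzip3-KD difference was 0.34 (SE 0.19, limma adjusted p 0.490), and it turned to -0.06 with the file set (files 1 to 3 or 4 to 6) as a term.

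*Cenpa* was at 18.0 (control 1), 18.6 (control 2), 13.9 (Ring1B-KD 1), 28.1 (Ring1B-KD 2), 20.9 (Dzip3-KD 1) and 22.1 RPKM (Dzip3-KD 2). The lowest and the highest value of the gene thus both carried the label Ring1B-KD, 2.03-fold apart. Its difference from control was 0.11 (SE 0.28, limma adjusted p 0.983) for Ring1B-KD and 0.22 (SE 0.28, limma adjusted p 0.761) for Dzip3-KD. With the file set (files 1 to 3 or 4 to 6) as a term in the fit both turned negative, to -0.38 and -0.75, so the direction is not determined.

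**Figure D3:**
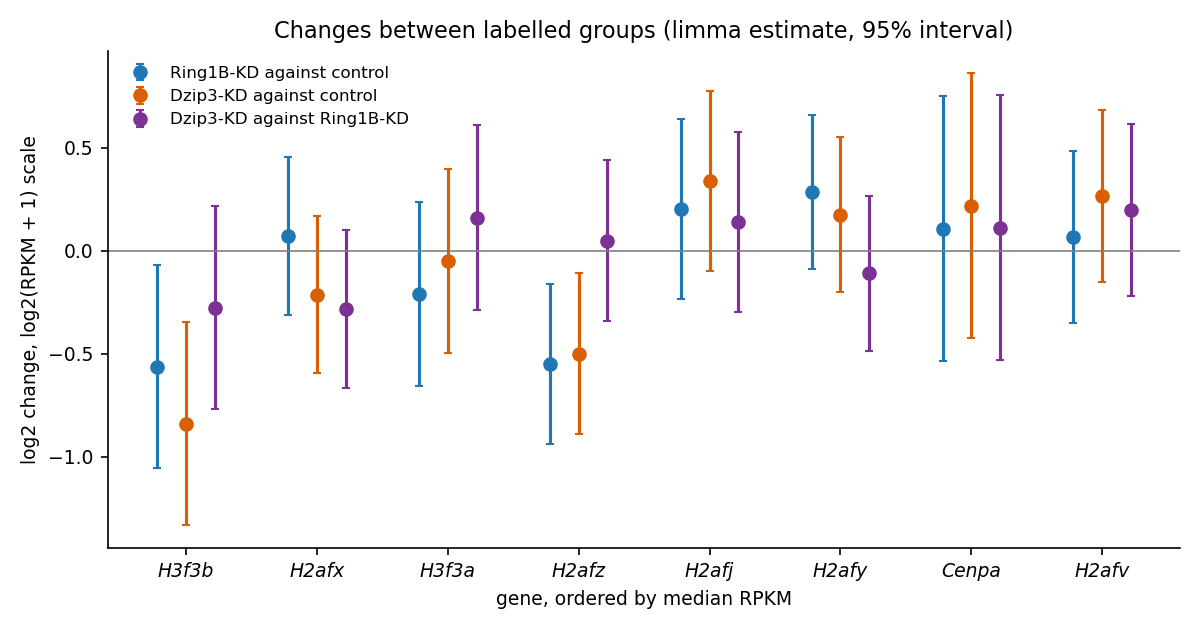
Change of each gene between labelled groups on the log2(RPKM + 1) scale (y axis), as the limma estimate from 6 libraries with its 95% interval. The intervals of *H3f3b* and *H2afz* lie below 0 in both comparisons with control (-0.84 and -0.50 for Dzip3-KD), before adjustment over all genes.

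In counts, both Dzip3-KD libraries lay above both controls for 4 of the 8 genes (*H2afv*, *H2afj*, *H2afy* and *Cenpa*) and below both for 3 (*H3f3b*, *H2afz* and *H2afx*). Among all genes tested 20.4% lay above and 30.3% below (50.7% in either direction). Both Ring1B-KD libraries lay above both controls for 1 gene (*H2afy*) and below both for 3 (*H3f3b*, *H3f3a* and *H2afz*), beside 14.9% and 18.9% of all genes (33.7% in either direction). Both Dzip3-KD libraries lay above both Ring1B-KD libraries for *H2afv* and below both for *H2afx* and *H2afy*, beside 12.6% and 20.4% of all genes (33.0% in either direction). The median log2 difference over the 8 genes was 0.06 for Dzip3-KD and 0.07 for Ring1B-KD against control, and over all genes it was -0.07 and -0.02. The levels over the 6 libraries spanned from 1.31-fold for *H2afy* to 2.03-fold for *Cenpa*, and *H3f3b* spanned 1.90-fold. The median span of the 3066 genes that averaged 10 RPKM or more was 1.53-fold.

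Libraries were then compared by the number of their file. The levels in files 4 to 6 did not overlap with those in files 1 to 3 for 4 of the 8 genes, and 28.6% of all genes tested were so separated (13.1% higher and 15.5% lower in files 4 to 6). *H2afv*, *H2afj* and *Cenpa* were higher in files 4 to 6, and *H3f3b* was lower. *H3f3b* was at 171 to 209 RPKM in files 1 to 3 and at 110.0 to 118 RPKM in files 4 to 6, a difference in mean log2 of -0.77. For *Cenpa* the ranges were 13.9 to 18.6 RPKM and 20.9 to 28.1 RPKM, a difference of 0.47. *H2afx*, *H2afz*, *H2afy* and *H3f3a* overlapped between the sets. Both libraries labelled control are in files 1 to 3 and both labelled Dzip3-KD in files 4 to 6. Among these libraries file set and group coincide, so their differences cannot be told apart. Only the Ring1B-KD libraries, 1 in each set, bridge the sets. The labels name no batch.

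Within a file set, 1 library remains in an arm, and the values are given without a test. In files 1 to 3, Ring1B-KD 1 differed from the mean of the controls by -0.62 on the log2 scale for *H2afz*, -0.38 for *Cenpa*, -0.34 for *H3f3a* and -0.26 for *H3f3b*, and by 0.33 for *H2afy*. The differences of the other 3 genes were between -0.03 and 0.12. In files 4 to 6, the Dzip3-KD libraries differed from Ring1B-KD 2 by -0.37 for *Cenpa* and -0.24 for *H2afx*. The other 6 genes, *H3f3b* (0.03) and *H2afz* (-0.02) among them, differed by -0.06 to 0.10. The difference of *H3f3b* between the labels thus lay mostly between the file sets, while that of *H2afz* was present within files 1 to 3. With the file set as a term in the fit, the Dzip3-KD difference from control was -0.22 for *H3f3b* and -0.65 for *H2afz* (limma adjusted p 0.903 and 0.829).

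The word in the file name gave another arrangement, with 1 library per word and set, and no test. In files 1 to 3, the file with the word Dzip3KD (label Ring1B-KD 1) differed from that with the word control (label control 1) by -0.57 on the log2 scale for *H2afz*. In files 4 to 6, the file with the word Dzip3KD (label Dzip3-KD 2) differed from that with the word control (label Ring1B-KD 2) by 0.10 for *H2afz*. For *H3f3b* these differences were -0.29 and 0.08. Thus neither gene kept its direction between the sets for the word Dzip3KD.

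For the word Dzip3KD the sign was the same in both sets for 2 of 8 genes, *Cenpa* (-0.36 and -0.34) and *H2afj* (-0.05 and -0.17), beside 51.8% of all genes tested. For the word Ring1BKD, carried by the libraries labelled control 2 and Dzip3-KD 1, it was the same for 2 of 8, *H3f3b* (-0.07 and -0.02) and *H3f3a* (-0.0047 and -0.19), beside 59.2%. A difference of over 1.5-fold in the same direction in both sets was seen for 0 of 8 genes under either word, where 2.24% of all genes reached it for Ring1BKD and 0.858% for Dzip3KD.

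**Figure D4:**
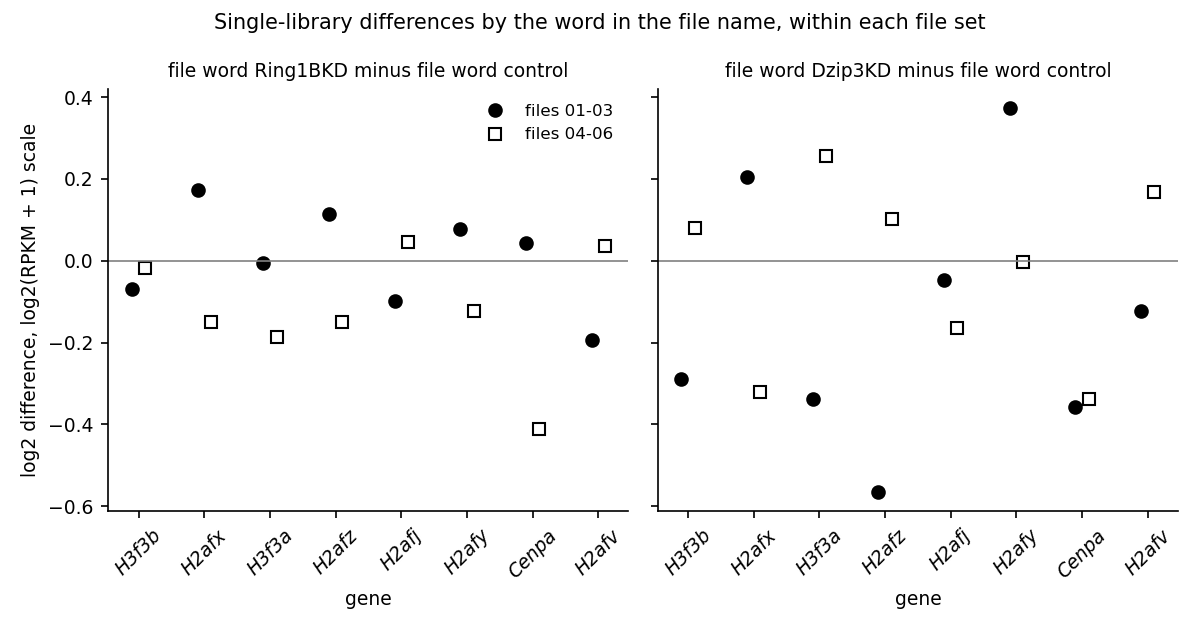
Single-library differences from the file with the word control of the same set, on the log2(RPKM + 1) scale (y axis), for the words Ring1BKD (left) and Dzip3KD (right). Filled circles are files 1 to 3 and open squares files 4 to 6. Circle and square lie on the same side of 0 for 2 of 8 genes in each panel, and for the word Dzip3KD *Cenpa* lies at -0.36 and -0.34.

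The factors that place or remove the variants were examined as lists. limma called 0 genes of any list in any of the 3 comparisons, and the counts below are at an unadjusted p under 0.05. Of 14 H2A.Z factors, 2 were lower and 0 higher in Dzip3-KD against control, beside 12.2% of all genes in either direction, and their median log2 difference was -0.23 against -0.07 over all genes. They were *Nap1l1*, a chaperone of H2A and H2B (-0.50, SE 0.17, limma adjusted p 0.323), and *Ruvbl2*, an ATPase of the exchange complexes (-0.53, SE 0.18, limma adjusted p 0.332). Of 8 H3.3 factors 1 was lower, *Hira*, which places H3.3 at transcribed genes. It averaged 4.83 RPKM in the Dzip3-KD libraries and 7.90 RPKM in the controls (-0.61, SE 0.18, limma adjusted p 0.319). *Atrx*, which with *Daxx* places H3.3 at repeats, differed by -0.51 (limma adjusted p 0.414). The median of the list was -0.39.

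Of 12 genes of CENP-A placement and the centromere, 0 were past an unadjusted p of 0.05 in that comparison, beside 12.2% of all genes. The median was 0.12. *Hjurp*, the chaperone of CENP-A, averaged 2.73 RPKM in the Dzip3-KD libraries and 1.71 RPKM in the controls (0.44, SE 0.33, limma adjusted p 0.591). *Mis18a*, which primes centromeres for it, differed by -0.50 (limma adjusted p 0.414), and *Cenpc1*, which binds CENP-A nucleosomes, by -0.38 (limma adjusted p 0.457). Of 8 genes of H2A.X signalling 2 were lower and 0 higher, beside the same 12.2% of all genes in either direction. They were *Baz1b*, a kinase of H2A.X (-0.70, SE 0.18, limma adjusted p 0.302), and *Rnf8*, a ubiquitin ligase at breaks (-0.52, SE 0.23, limma adjusted p 0.409). The median of this list was -0.15. Of 10 other variant genes 5 were listed and tested. Among them *H1f0*, a linker histone of resting cells, had a median of 19.1 RPKM and *H2afy2*, the macroH2A2 gene, 8.44 RPKM, with differences of -0.36 and -0.30 (limma adjusted p 0.490 and 0.693).

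In Ring1B-KD against control, 1 of the 14 H2A.Z factors (*Nap1l1*, -0.53) and 1 of the 8 H3.3 factors (*Hira*, -0.51) were lower at an unadjusted p under 0.05, beside 5.10% of all genes, with list medians of -0.06 and -0.09. The centromere, H2A.X and G2 and M lists had 0, and 1 of the 5 other variant genes was higher (*Hist3h2a*, 0.98, a replication-type H2A gene at 0.574 to 4.08 RPKM). In Dzip3-KD against Ring1B-KD, beside 4.63% of all genes, *Ruvbl2* (-0.48), *Baz1b* (-0.44) and *Hist3h2a* (-1.04) were lower, and 0 genes passed in the H3.3, centromere and G2 and M lists. The limma adjusted p was 0.902 for the genes of the first comparison and 0.864 for those of the second.

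Genes of the G2 and M phases were listed beside the variants, because *Cenpa* is made late in the cell cycle. Of 12 genes, 4 were lower and 0 higher at an unadjusted p under 0.05 in Dzip3-KD against control, beside 12.2% of all genes in either direction, among them *Ccnb1*, the cyclin of mitotic entry (-0.44, limma adjusted p 0.375), and *Cdc20*, an activator of the anaphase complex (-0.48, limma adjusted p 0.388). The other two were the mitotic kinases *Plk1* (-0.48) and *Aurka* (-0.46). The list's summed level was 287 to 306 RPKM in the controls, 248 to 270 RPKM in the Ring1B-KD libraries and 233 to 237 RPKM in the Dzip3-KD libraries. It differed in the same direction as *H3f3b* and *H2afz*, and its part in these differences was not tested. *Cenpa* itself (0.22) and *Bub1* of the list (0.21) differed the other way in Dzip3-KD against control. The summed level of 3 neural markers was 3.51 to 5.98 RPKM in the controls, 4.41 to 8.53 RPKM for Ring1B-KD and 8.15 to 9.33 RPKM for Dzip3-KD. Most of the sum was *Nes*, which averaged 6.32 RPKM for Dzip3-KD and 3.08 RPKM for control (0.91, unadjusted p under 0.05, limma adjusted p 0.388). *Sox1* averaged 2.03 and 1.58 RPKM (0.23, limma adjusted p 0.715), and *Pax6* was at 0 in at least 1 library and at no more than 0.682 RPKM. The part of this list was not tested either.

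For each gene the most similar patterns over the 6 libraries were sought among the 3066 genes averaging 10 RPKM or more, by Pearson's r of log2(RPKM + 1). The values are a description. They were picked as the highest among 3066 genes over only 6 libraries, so their height is no evidence of a link. *Id3* (0.998) and *Kat7* (0.996) were nearest to *H3f3b*, *Rnf4* (0.984) and *Ddb1* (0.983) to *H2afz*, and *Tpst2* (0.990) and *Blcap* (0.983) to *H2afv*. *Supt5* (0.975) and *2810004N23Rik* (0.967) were nearest to *H2afx*, *Mbtps1* (0.9998) and *Akap1* (0.983) to *H2afj*, and *Nktr* (0.968) and *Rpl39* (0.963) to *H2afy*. For *H3f3a* these were *Srsf6* (0.988) and *Gm6251* (0.979), and for *Cenpa* *Trappc3* (0.991) and *Serf2* (0.984). Among the 8 genes themselves, *H3f3b* and *H2afj* had an r of -0.92 and *H2afx* and *H2afv* of -0.90, while the genes of a pair had values near the middle, 0.05 for *H3f3a* with *H3f3b* and -0.39 for *H2afz* with *H2afv*. These points share the library and its depth.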

How the data were processed

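RNA-seq lists of 6 libraries were used, 1 per library. The authors prepared stranded mRNA libraries, sequenced them on a MiSeq, aligned reads to mm9 with 1 mismatch allowed, kept reads assigned uniquely to a gene and deposited RPKM values. The gene annotation and software versions are not given in the sources used here. Groups and replicate numbers follow the labels. The genes and lists were chosen with earlier results of these data known. Named genes are the 8 members, the 2 genes of each related list with the smallest unadjusted p in Dzip3-KD against control, and the 2 most correlated genes per member. *Hjurp*, *Hist3h2a*, *Plk1*, *Aurka*, *Bub1* and the marker genes given with a difference were added after their values were seen.

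Reads per gene were recovered where 1 step divided each of its 6 values into whole numbers, within a relative tolerance of 4e-05, which held for 15693 of 16668 genes (94.2%). Values under 0.001 RPKM (457) were taken as 0 in this step. The relative depth came from 461 to 503 low genes per library against control 1, and the mapped reads from annotated transcript lengths of GENCODE M1, on which 3104 transcripts met. limma 3.58.1 in R 4.3.3 was fitted on log2(RPKM + 1) with the variance trend, without covariates, for 3 contrasts and with Benjamini-Hochberg adjustment over 11538 genes. Such fold changes understate the change of low genes. The code was tested on simulated reads. Unspliced copies were found with blastn 2.17.0, leaving out contigs named as random.

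Pairing by replicate number was examined through how same-numbered libraries deviate together from their groups over all genes tested. Pearson's r was -0.04 for control and Ring1B-KD, -0.24 for control and Dzip3-KD and 0.04 for Ring1B-KD and Dzip3-KD, so the numbers were not taken to pair them.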

Additional observations from a re-analysis of the deposited data

How the results depend on the processing

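The number of the 8 genes called was 0 in each of the 3 comparisons and stayed 0 under each of these alternatives: a pseudocount of 0.1, no filter or a mean of at least 5 RPKM, 75th percentile scaling, quantile normalization, the file set as a term, only the 4 libraries compared, no moderation, and each library left out in turn (0 to 0). With the replicate block it was also 0 in each comparison. Crossed replicate numbers as the block were added after seeing the data, for Dzip3-KD against control. With them 1 of the 8 genes and 182 genes in all were called, against 40 genes with the same numbers. The crossed block joins control 2 and Dzip3-KD 1, whose files both carry the word Ring1BKD. The part of the word in these calls was not tested. Genes called in all were 24 in Dzip3-KD against control with only the 4 libraries compared, and 25 and 27 without Ring1B-KD replicates 1 and 2, in place of 0. The *H3f3b* adjusted p by limma in that comparison ranged from 0.0552 to 0.903 over 15 alternatives, and its log2 change from -0.89 to -0.22.

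With 75th percentile scaling the direction of *H3f3a* in Dzip3-KD against control reversed (0.052 on the log2 scale). With the file set as a term, values turned to -0.026 (*H2afv*) and -0.38 (*Cenpa*) in Ring1B-KD against control, to -0.058 (*H2afj*) and -0.75 (*Cenpa*) in Dzip3-KD against control, and to -0.023 (*H2afz*), -0.060 (*H2afj*), 0.031 (*H3f3b*) and -0.37 (*Cenpa*) in Dzip3-KD against Ring1B-KD. Such a fit rests on the label Ring1B-KD alone as the link between the sets. With each library left out, ranges that crossed 0 were, in Ring1B-KD against control, -0.016 to 0.16 (*H2afx*), -0.029 to 0.16 (*H2afv*) and -0.38 to 0.59 (*Cenpa*). They were -0.27 to 0.17 (*H3f3a*) in Dzip3-KD against control. In Dzip3-KD against Ring1B-KD they were -0.077 to 0.18 (*H2afz*), -0.060 to 0.34 (*H2afj*), -0.58 to 0.031 (*H3f3b*), -0.37 to 0.60 (*Cenpa*) and -0.061 to 0.38 (*H3f3a*). The cause was not tested. A library left alone in its group is assumed to vary like the others. Median levels, with each library left out or with 75th percentile scaling, and shares within pairs, with each library left out, moved by less than 1 SD of the libraries. For *H3f3b* that SD (45.8 RPKM) includes the gap between file sets, so the check is a loose one. With a library left out, its median of 144 RPKM became 118 or 171 RPKM. Its median share of 67.4% became 63.0% or 71.9%. Depth limits *H2afv* most, at 52 to 75 reads.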
